A study of Sus scrofa with 12 samples.

Results

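The genes described here encode the proteasome: the protein-coding genes of the Sscrofa11.1 annotation whose symbols begin with PSMA, PSMB, PSMC, PSMD, PSME, PSMF or PSMG. They were picked by symbol alone, which gave 49 of the 28195 annotated genes. RNA was taken from the longissimus dorsi (LD) muscle of 12 Iberian purebred pigs, 1 library per pig, 6 with a high (H group) and 6 with a low (L group) estimated breeding value (EBV) for intramuscular fat (IMF). All were castrated males of a closed commercial population, fattened outdoors on acorns and grass eaten at will, and no treatment was given. By the label of each pig, IMF was 11.9% ± 1.25 (SD, n = 6) in the H pigs and 1.98% ± 0.262 (SD, n = 6) in the L pigs (the methods text of the study states a higher L mean), and the EBV averaged 3.05 ± 0.315 and -1.37 ± 0.0504 respectively. Close relatives had been avoided in the choice. A group is a set of animals chosen for a breeding value, with no controlled intervention, and the slaughter batch of a pig entered no comparison.

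The proteasome is the machine that degrades most short-lived and damaged proteins of a cell after they have been tagged with ubiquitin. Its 20S core is a barrel of stacked rings. The α subunits (PSMA genes) form the outer rings and gate the entrance, and the β subunits (PSMB genes) form the inner rings, of which PSMB5, PSMB6 and PSMB7 carry the proteolytic sites. The 19S cap recognises and unfolds substrates with a base, made of the AAA-ATPases PSMC1 to PSMC6 and the scaffold and receptor subunits PSMD1, PSMD2 and PSMD4, and with a lid that removes the ubiquitin chain. Interferon induces PSMB8, PSMB9 and PSMB10, which take the places of the constitutive catalytic subunits and form the immunoproteasome, and also the activator pair PSME1 and PSME2. In skeletal muscle the system is best known for the breakdown of myofibrillar proteins during wasting.

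The values are FPKM (fragments scaled to transcript length and to the size of the library), listed by Cufflinks for each transcript assembled in a library, summed here per gene and scaled between libraries by median ratios. The libraries held 30535 to 44609 assembled transcripts, with the fewest in L3 and the most in H4, and 9.88 to 17.6 gigabases of coverage. Of that coverage 41.5 to 56.1% lay in transcripts that could be assigned to an annotated gene. The muscle markers tested were abundant, with a summed level of 29486 to 44576 FPKM in H pigs and 31450 to 40746 in L pigs. ACTA1 was listed at 0 in all 12 libraries, so a listed 0 in these files does not by itself show that a gene was silent. FPKM carry no read counts, so no counting interval is given.

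Of the 49 genes, 46 reached a mean of 0.5 FPKM in a group and were tested, and 44 were above 0 in all 12 libraries. The remaining 3 were listed at 0 in all libraries: PSMA8, an α subunit of the testis, PSMB11, a catalytic subunit of the thymus, and PSMC3IP, which shares the prefix but encodes a cofactor of meiotic recombination. PSME1 was listed at 0 in H3 only and PSMG4 in L3 only. In H3 both transcripts that covered all 971 exonic bases of PSME1 (5.33 and 5.35 FPKM as deposited) also covered DCAF11, upstream of it. They shared 4202 and 4225 bases with DCAF11 and were counted there. No transcript was listed on the PSMG4 strand in L3.

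The constitutive proteasome was expressed at a high and narrow range of levels. The 31 genes of the core particle and cap (PSMA1 to PSMA7, PSMB1 to PSMB7, PSMC1 to PSMC6, and 11 PSMD genes, called the 26S core below) had means over the 12 pigs from 34.9 FPKM (PSMD12, a lid subunit) to 114 FPKM (PSMB4, a structural β subunit), a span of 3.27 times. All of them lay between the 92.0 and 97.4 percentiles of the protein-coding genes detected. Within the α ring the means went from 36.8 FPKM for PSMA4 to 108 FPKM for PSMA7, and within the β ring from 45.4 FPKM for PSMB3 to 114 FPKM for PSMB4. Among the ATPases PSMC4 was lowest (43.3 FPKM) and PSMC5 highest (95.7 FPKM), and in the lid PSMD12 was lowest and PSMD11 highest (104 FPKM). PSMD1, PSMD2 and PSMD4 averaged 42.0, 72.9 and 78.1 FPKM.

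The genes outside the 26S core had lower means, except PSME4, which lay above PSMD12 and PSMA4. The interferon-induced catalytic subunits averaged 1.83 FPKM (PSMB9), 4.56 FPKM (PSMB8) and 5.99 FPKM (PSMB10). Of the activators, which dock onto the ends of the core particle in place of the cap, PSME4 (PA200) averaged 37.2 FPKM, PSME2 11.2 FPKM, PSME1 11.0 FPKM and PSME3 9.95 FPKM. PSMF1, the PI31 protein that binds the core particle, averaged 19.7 FPKM. The PSMG chaperones, which assist the assembly of the α ring, went from 5.78 FPKM (PSMG3) to 24.6 FPKM (PSMG4), and the chaperones of the base, PSMD5, PSMD9 and PSMD10, from 3.06 FPKM (PSMD10) to 9.77 FPKM (PSMD5).

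**Figure D1:**
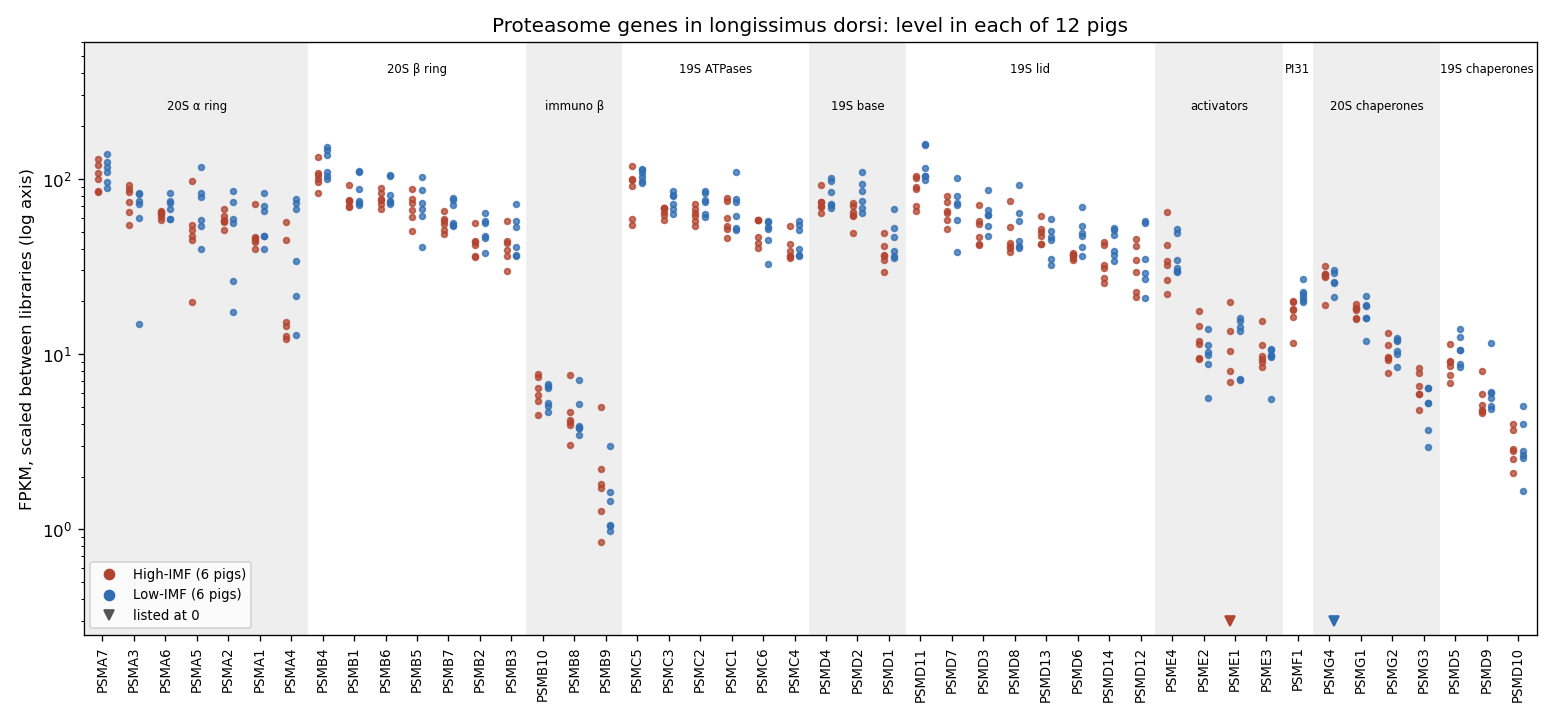
Level of the 46 proteasome genes tested (x axis, by subcomplex and mean) in each of 12 pigs (y axis, scaled FPKM, log axis; 1 point per pig, triangles for a listed 0). The 26S core genes average 34.9 to 114 FPKM and the 3 interferon-induced β genes 1.83 to 5.99 FPKM.

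Part of the spread between pigs came with the length of the assembled transcript, because FPKM divides by that length. PSMA4 (chr7:47440576-47448599, minus strand) had 76.9, 73.0, 67.3 and 56.7 FPKM in L3, L6, L1 and H5, and 12.1 to 15.3 FPKM in H1, H2, H4, H6 and L2. The pigs with the low values carried transcripts of 5375 to 6150 bases that continued 3805 to 4486 bases past the annotated end of the gene, where those with the high values had 941 to 1289 bases. Another measure, called coverage below, divides all sequenced bases of the assigned transcripts by the annotated exonic length of the gene. It counts bases beyond the gene as well, but does not divide by the assembled length. By coverage PSMA4 varied with a coefficient of variation (CV) of 19.8% in place of 70.0% and was highest in L6 and L3. PSMA2 showed the same in 2 pigs: L2 and L6, with transcripts of 2289 and 2265 bases, had 17.4 and 25.99 FPKM, against 51.1 to 84.7 FPKM and 632 to 866 bases in the other 10.

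PSMA3 had 14.9 FPKM in L1, where its transcript extended 4130 bases beyond the gene, and 54.7 to 92.6 FPKM elsewhere, and by coverage its CV was 10.5% in place of 29.6%. The opposite occurred for PSMD9, a chaperone of the base: L2 and H6 carried fragments that lowered the mean length to 1011 and 1655 bases, and had 11.5 and 8.04 FPKM against 4.63 to 6.06 FPKM in the other 10 pigs. Its CV was 11.2% by coverage and 32.7% by FPKM. Single low or high values of these 4 genes therefore followed the assembly.

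**Figure D2:**
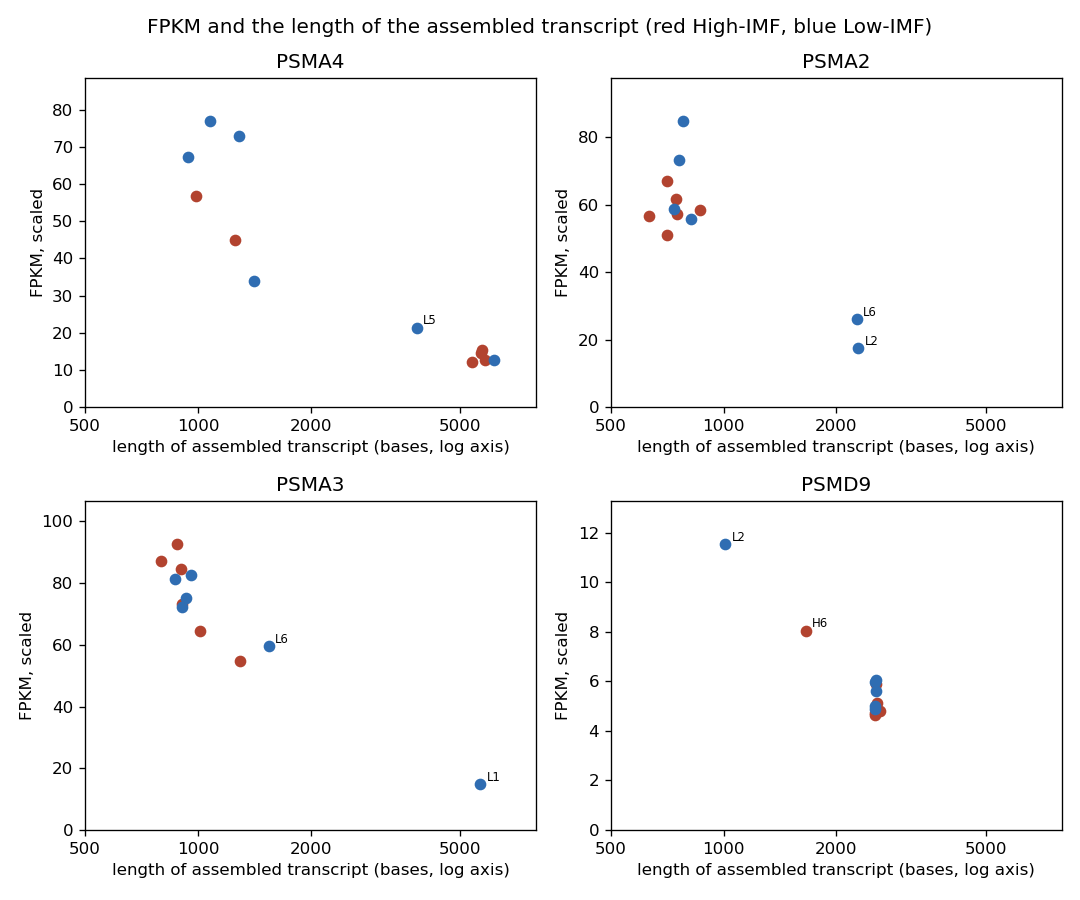
Scaled FPKM (y axis) against the FPKM-weighted length of the assembled transcripts (x axis, bases, log axis) for PSMA4, PSMA2, PSMA3 and PSMD9, 1 point per pig. Pigs with long transcripts have low FPKM, as L1 for PSMA3 (14.9 FPKM) and L2 and L6 for PSMA2 (17.4 and 25.99 FPKM), and the fragmented PSMD9 of L2 and H6 have high FPKM.

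The core genes varied together from pig to pig, across both groups. For each pig the median over the 31 core genes of the log2 deviation from the mean of the 12 pigs was 0.45 in L3, 0.35 in L6, 0.23 in H5 and 0.19 in L1. The other 8 pigs lay between -0.05 (L4) and -0.27 (H3). The summed level of the 31 genes went from 1616 FPKM in H3 to 2668 FPKM in L3. L3 was the highest of the 12 pigs for 17 of the 31 genes and L6 for 10, while H3 was the lowest for 11 and H2 for 9. By coverage the same 4 pigs led, with 0.55 in L3, 0.31 in L6, 0.21 in L1 and 0.20 in H5.

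Over all genes tested the same median per pig was between -0.03 and -0.00. After removal of the group means, the mean Pearson correlation over all pairs of the 31 core genes was 0.47 (12 pigs; 0.42 without L3), against 0.00 over pairs of all 12398 genes tested. It was 0.65 within the lid, 0.55 within the β ring, 0.38 among the ATPases and 0.19 within the α ring (0.42 by coverage). These are descriptions: the genes share libraries, depth and scaling.

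PSMB3, PSMB4 and PSMA1 followed the median of the other core genes most closely, with r of 0.97, 0.95 and 0.94 over 12 pigs, and 15 of the 31 reached 0.8. The 6 genes under 0.5 were PSMA2, PSMA3, PSMA7, PSMB6, PSMC3 and PSMC5. By coverage 22 reached 0.8, PSMA2 moved from 0.32 to 0.84, and 7 were under 0.5. Outside the core, PSMG1, a chaperone of the α ring, had 0.79 (0.90 by coverage) and PSME4 0.74 (0.72), whereas the 3 interferon-induced genes and PSME1 and PSME2 had a mean pairwise correlation of 0.04 among themselves (0.17 by coverage, with PSME1 listed at 0 in H3). The 3 interferon-induced β genes alone had 0.36 by FPKM and 0.67 by coverage.

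L3, L6, H5 and L1 were exactly the 4 highest pigs for 13 of the 31 core genes (41.9%), for 0 of the 15 other proteasome genes and for 1.33% of all genes tested. The core genes themselves picked these pigs, so their count is a description. Among the pathway lists described below the same 4 pigs led for UBB, a polyubiquitin gene, for MAFG and for SQSTM1, UBQLN1 and NSFL1C, which bring substrates to the proteasome. UBB had 788 FPKM in L3, 698 in L1, 602 in L6 and 453 in H5, and 222 to 431 FPKM in the other 8 pigs. The constitutive chaperone gene HSPA8, which stands on none of the lists and was looked up after the order of the pigs was known, also had its highest levels in these pigs, 1398 FPKM in L3 and 567 to 606 FPKM in L6, H5 and L1 against 313 to 479 FPKM in the rest. NFE2L1, the transcription factor best known for inducing proteasome genes, did not follow that order: it had 229, 203 and 147 FPKM in L3, L4 and L2 and 104, 91.5 and 90.3 FPKM in L6, L1 and H5.

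The 4 leading pigs also differed in the files themselves. L3 had the fewest assembled transcripts, and L1, H5 and L6 had 34463, 35094 and 35336, where H4, with a core median of -0.17, had 44609, but L2, with -0.16, had 34931. The share of coverage assigned to genes was 41.5% in H5, 42.5% in L6 and 46.0% in L1, but 50.7% in L3, and 43.6% in L2, which was not among the leading pigs. The part of these differences in the core levels was not tested beyond the fit with the number of transcripts given below.

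**Figure D3:**
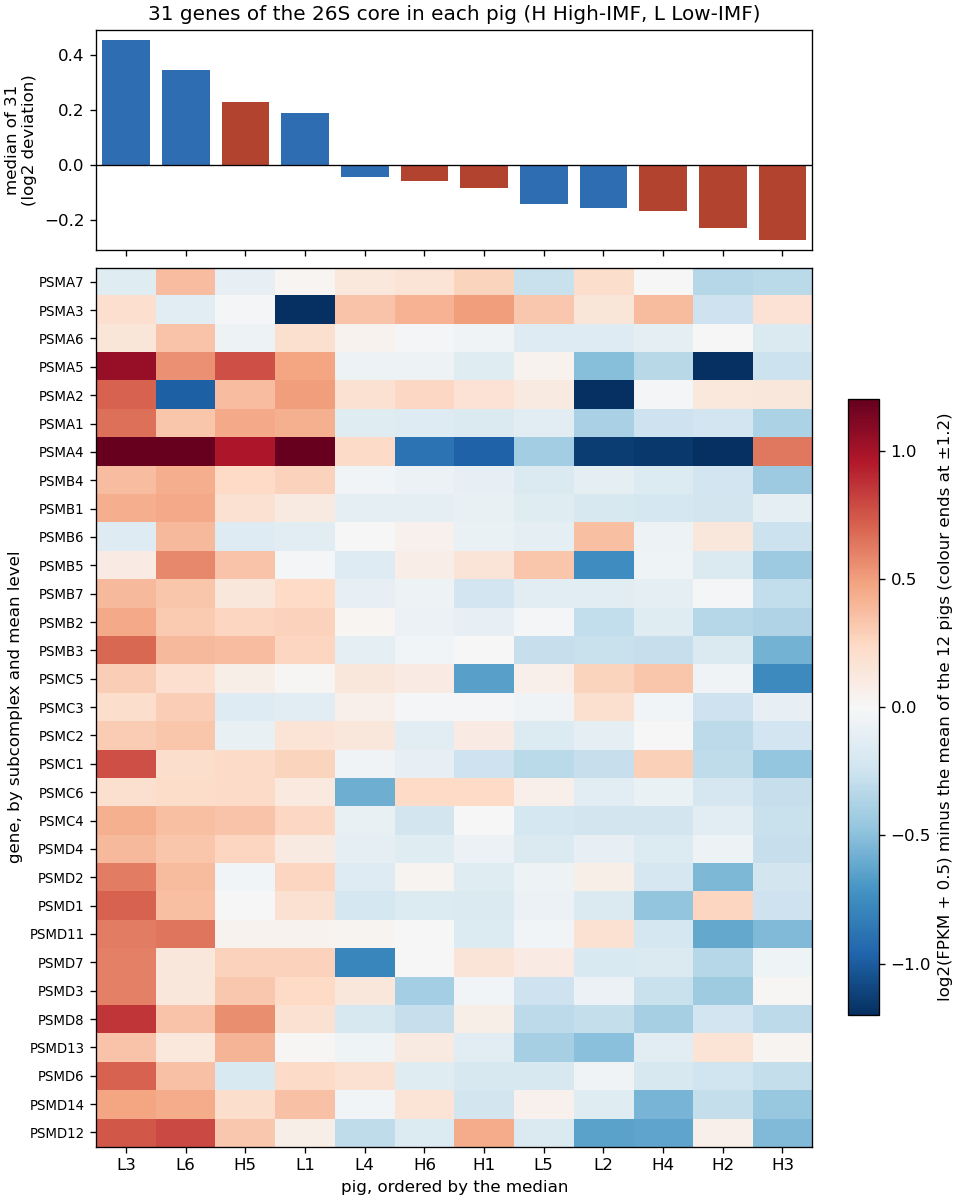
The 31 genes of the 26S core (rows) in 12 pigs (columns, ordered by the median): colour gives log2(FPKM + 0.5) minus the mean of the 12 pigs, bars on top the median of the 31 genes per pig. L3, L6, H5 and L1 lie above 0 with medians of 0.45, 0.35, 0.23 and 0.19, and the isolated dark blue cells are the extended transcripts of PSMA2, PSMA3, PSMA4 and PSMA5.

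The comparison of the H with the L group asked whether proteasome expression differed between pigs with a high and a low EBV for IMF. No proteasome gene passed the test, limma's moderated test on log2(FPKM + 0.5) with Benjamini-Hochberg adjustment over all 12398 genes and a threshold of 0.1, and the smallest adjusted p of the 46 was 0.61. Over all genes 0.00807% passed, which was 1 gene. At an unadjusted p under 0.05 stood 5 of the 46 genes, all with the lower mean in H (10.9%, against 7.31% of all genes in either direction and 3.38% with the lower mean in H), and 0 with the higher mean in H (3.93% of all genes). Under the alternative settings 0 of the 46 passed the adjusted threshold, against 0.129% of all genes. The groups did not overlap for 0 of the 46, against 0.557% of all genes. The standard error of a log2 fold change had a median of 0.17 over the 46 genes. A change well above its standard error could still miss the threshold: PSMD11, at -0.49 (SE 0.17), had a limma adjusted p of 0.61.

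The signs were nevertheless uneven. Of the 46 genes 34 had a log2 fold change (H over L) below 0, 73.9% against 49.5% of all genes, and the median was -0.18 against 0.00 over all genes. Below 0 were 27 of the 31 core genes (median -0.20): 7 of 7 in the β ring, 3 of 3 of PSMD1, PSMD2 and PSMD4, 7 of 8 in the lid, 5 of 6 ATPases and 5 of 7 in the α ring. The 3 interferon-induced β genes were all above 0, with log2 fold changes of 0.00 for PSMB8, 0.08 for PSMB10 and 0.30 for PSMB9, each smaller than its standard error (0.17, 0.01 and 0.13 by coverage). Since core genes move together within a pig, these signs are not separate observations: the core median per pig was -0.10 ± 0.18 (SD, n = 6) in H and 0.11 ± 0.26 (SD, n = 6) in L, a smaller gap than the spread between L pigs, with H5 among the high pigs and L2, L4 and L5 among the low.

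The direction of the median did not hold in every fit. With the number of assembled transcripts per library as a covariate, an alternative added after the data had been seen, the median over the 46 genes was 0.01 and 23 were below 0. That number was itself higher in most H libraries, so the covariate and the group are partly the same. Under quantile normalization the median was -0.08 with 31 genes below 0, and without H4 and L3 it was -0.09 with 30. By coverage it was -0.19 with 40 of 46 below 0.

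Below that unadjusted level stood PSMD6, PSMD11, PSMD14, PSMD2 and PSMF1. PSMD6, a lid subunit (chr13:45506334-45529481, minus strand), had a lowest, median and highest value of 34.3, 36.6 and 37.9 FPKM in H and of 36.5, 48.3 and 68.9 FPKM in L. All 6 H pigs lay below the median of L, and the H values were packed tightly, yet L5 (36.5 FPKM) lay inside the range of H. Its log2 fold change was -0.41 (SE 0.14, limma adjusted p = 0.61).

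PSMD11, another lid subunit (chr12:42498711-42529853, minus strand), had 65.8, 88.7 and 104 FPKM in H and 98.8, 109 and 158 FPKM in L. All L pigs were above the H median, and the highest H pigs, H5 and H6, overlapped the lowest L pigs. The log2 fold change was -0.49 (SE 0.17, limma adjusted p = 0.61). No library held an annotated intron chain of PSMD11: all 12 carried the same chain of 13 introns that RefSeq does not list.

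PSMD14, the metalloprotease of the lid that cuts off the ubiquitin chain (chr15:68107379-68208884, plus strand), had 25.4, 31.4 and 43.5 FPKM as lowest, median and highest value in H and 34.0, 43.4 and 52.3 FPKM in L. H5 and H6 reached the L median or came close to it. The log2 fold change was -0.38 (SE 0.17, limma adjusted p = 0.68), in the fit with the number of transcripts it was -0.07, and by coverage -0.24.

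PSMD2, a scaffold subunit of the base (chr13:122187500-122199397, plus strand), had 49.0, 63.2 and 72.8 FPKM in H and 64.2, 80.2 and 110 FPKM in L, the H pigs all under the L median and the ranges overlapping. The log2 fold change was -0.37 (SE 0.15, limma adjusted p = 0.66). PSMF1 (chr17:34118324-34164723, minus strand) had 11.5, 18.0 and 20.1 FPKM in H and 19.8, 21.5 and 26.8 FPKM in L. H3 alone, with 20.1 FPKM, exceeded the lowest L pig. Its log2 fold change was -0.36 (SE 0.14, limma adjusted p = 0.64). Its lowest value, in H5, came with a transcript of 3261 bases (1465 to 1577 bases elsewhere), and by coverage H5 was second only to L6 and the log2 fold change was -0.19. Its correlation with the core median over 12 pigs was -0.19 by FPKM and 0.57 by coverage.

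These genes did not keep an unadjusted p under 0.05 in every fit. PSMD6 and PSMD11 missed it in 1 fit each, PSMF1 in 4, PSMD2 in 8 and PSMD14 in 13 of 27 fits (26 for PSMD11). Their number depended on single pigs: 11 proteasome genes had an unadjusted p under 0.05 without H5, 8 without L2 and 3 without H2, L3 or L6.

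**Figure D4:**
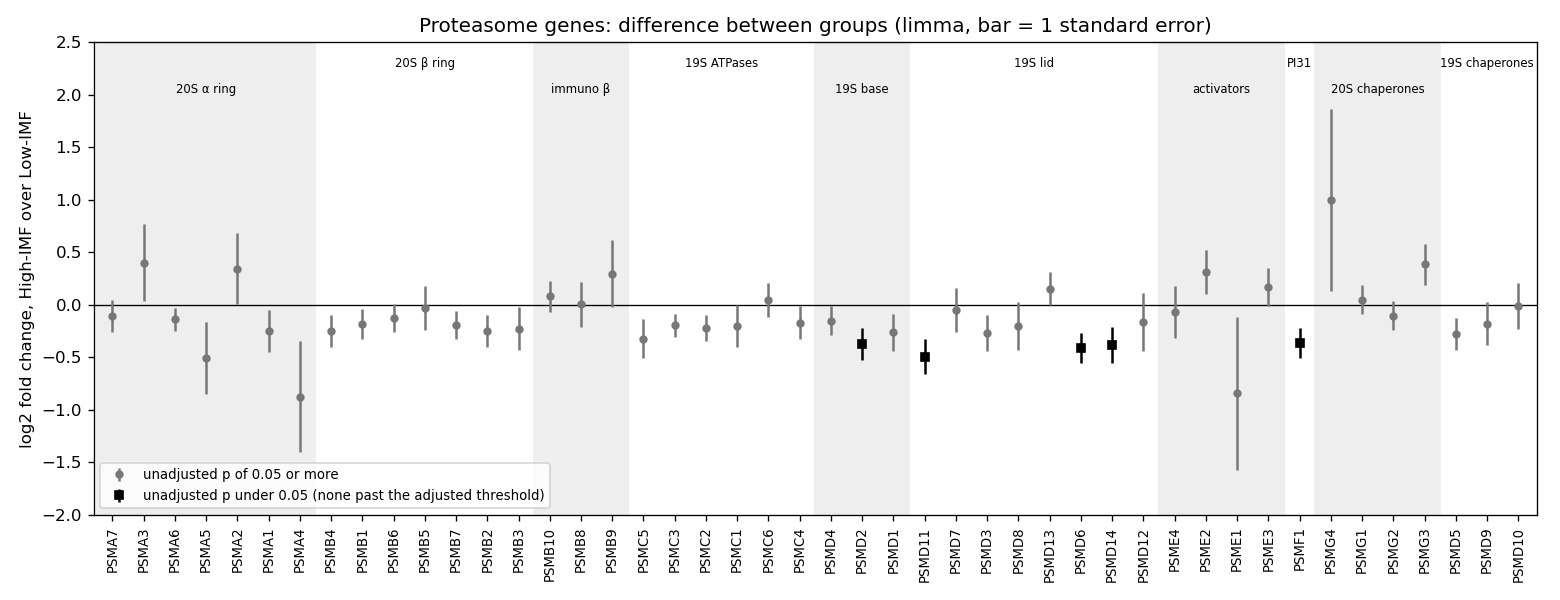
Log2 fold change, H over L, of the 46 proteasome genes tested (y axis, point with 1 standard error, limma) by subcomplex (x axis). Squares are the 5 genes with an unadjusted p under 0.05; the largest bars belong to PSME1 and PSMG4, each listed at 0 in 1 pig.

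The mRNA levels of the interferon-induced subunits were a small share of those of their constitutive counterparts. PSMB8 over PSMB5 was 7.17% ± 4.00 in H and 7.36% ± 5.13 in L, PSMB9 over PSMB6 2.90% ± 2.32 and 1.90% ± 1.18, and PSMB10 over PSMB7 11.11% ± 2.27 and 9.23% ± 2.42 (SD, n = 6 each, ratios of FPKM within a library). None of the 3 ratios passed a two-sided exact permutation test over all arrangements of the pigs, with p = 0.92, 0.34 and 0.19 and adjusted p = 0.92, 0.51 and 0.51. The smallest p this design allows is 0.0022.

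H3 stood apart. PSMB8 was 7.57 FPKM in H3 and 3.03 to 4.66 FPKM in the other H pigs, and PSMB9 was 5.00 FPKM there against 0.84 to 2.20 FPKM. PSMB8 over PSMB5 was 14.9% in H3 and PSMB9 over PSMB6 7.43%, and the same ratios by coverage were 14.8% and 7.42%, the highest of the 12 pigs. PSME2 was also highest in H3 (17.6 FPKM against 5.59 to 14.5 FPKM). PSMB10 was not: it had 6.41 FPKM in H3 and 7.69 FPKM in H6, and by coverage 6.32 and 6.97. PSMB10 over PSMB7 was 13.2% in H3 and 13.4% in H6, and by coverage it was 9.45% in H3, the highest of the 12 pigs. Of the antigen presentation partners of the immunoproteasome, ERAP1, which trims the peptides, was at 48.2 FPKM in H3 (2.84 to 24.6 FPKM elsewhere). TAP1 and TAP2, the peptide transporter, and TAPBP were also highest there, at 7.36, 4.42 and 7.63 FPKM, but NLRC5 was not (2.22 FPKM, against 1.31 to 4.37 FPKM elsewhere) and IRF1 was higher in L3 (3.62 FPKM) than in H3 (2.69 FPKM). The lymphocyte markers summed to 7.83 FPKM in H3, and only L6 was higher (3.38 to 8.50 FPKM in the other pigs). In L6 PTPRC alone had 4.31 FPKM. The macrophage markers summed to 45.6 FPKM in H3, and only L1 was higher (19.5 to 50.9 FPKM in the other pigs). The adipocyte markers had their highest sum in H3, 226 FPKM against 73.6 to 191 FPKM in the other pigs. ADIPOQ, PLIN1 and CIDEC were highest in H3, but FABP4 and LEP in H5, LPL in H2 and PLIN4 in L2. The part of any of these cell types in the H3 values was not tested. In a whole-muscle sample more cells of a type and more RNA per cell cannot be told apart.

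L2 looked like H3 by FPKM only. Its PSMB8 over PSMB5 ratio was 17.5%, but the PSMB8 transcripts of L2 were fragments of 436 bases on average. Its only PSMB5 transcript, of 1985 bases, lacked the annotated intron chain and reached, introns included, 24692 bases past the gene. In H1, H5 and H6 a PSMB5 transcript also reached 23764 to 23766 bases past the gene, beside one with the annotated chain. By coverage the ratio in L2 was 4.30%, the lowest of the 12 pigs.

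**Figure D5:**
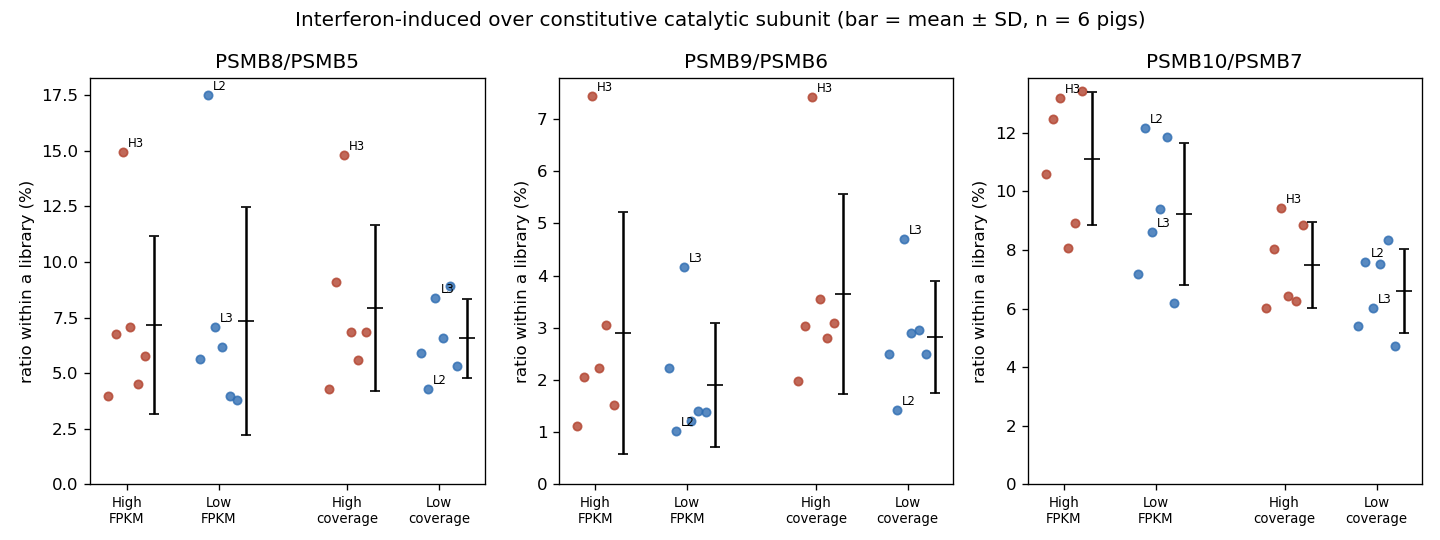
Interferon-induced over constitutive catalytic subunit within a library (y axis, %), by FPKM and by coverage, 1 point per pig with mean ± SD (n = 6). Coverage is all sequenced bases of the assigned transcripts over the annotated exonic length. H3 is high for PSMB8/PSMB5 and PSMB9/PSMB6 on both scales, and L2 is high for PSMB8/PSMB5 by FPKM (17.5%) only.

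PSMB8 and PSMB9 lie 10.5 kb apart on chromosome 7, on opposite strands. Of 10 pairs of genes whose relation across the 12 pigs was computed, they gave a Pearson r of 0.60 (permutation p = 0.040, adjusted p = 0.20) and a Spearman rho of 0.64 (permutation p = 0.028, adjusted p = 0.28) by FPKM. Without the 2 pigs farthest from the median of PSMB8 (L2 and H3) r was 0.81, and without H3 alone 0.27. By coverage, computed after the data had been seen, r was 0.97 (permutation p = 4.0e-05, adjusted p = 0.00040) and rho 0.94 (permutation p = 5.0e-05, adjusted p = 0.00050), and r was 0.89 without the 2 farthest pigs, L3 and H3. By coverage the pair thus moved together across these pigs.

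For PSMB5 and PSMB8 the relation was seen by FPKM only, where r was -0.74 (permutation p = 0.0071, adjusted p = 0.071), with rho -0.57 (permutation p = 0.058, adjusted p = 0.29) and r of -0.67 without L6 and L2, but by coverage r was -0.14 and rho -0.21. None of the other 8 pairs had an adjusted p under 0.1 by either measure.

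The starts of the interferon-induced genes are shown because the pattern GAAA, any 2 bases and GAAA, the core of the element bound by interferon regulatory factors, was found there. It was searched on both strands of the 250 bases before to 50 after the annotated start, and 5 of 49 proteasome genes held it against 3.58% of 19548 protein-coding promoters: PSMB9, PSMB10, PSME1 and PSME2, and of the core only PSMC4. In PSME1 and PSME2 the match began 18 and 19 bases after the start, in the others before it. The sequences are RefSeq's Sscrofa11.1, read 5′ to 3′ in the direction of the gene, with the match in capitals (in PSME1 on the opposite strand).
PSMB9, chr7:25071966-25071995, plus strand: atgggaaaggGAAAACGAAAgcggccgccg
PSMB10, chr6:28547619-28547648, minus strand: gaggaaatgtGAAAGCGAAAgcagttaagc
PSMB10, second match, chr6:28547668-28547697, minus strand: aggtgaaggtGAAAGTGAAAgaggatgcag
PSME1, chr7:75164494-75164523, minus strand: cgagcgctgcTTTCGCTTTCccttccctgt
PSME2, chr7:75154579-75154608, plus strand: cgtggggagtGAAAGCGAAAgcccaggctg
PSMC4, chr6:48406054-48406083, plus strand: ttcctcaagtGAAAGAGAAAaaagagaacc
In PSMB9 another match overlaps the one shown. PSMB8 held no match in this window. A match is a string of letters and not a measured binding site.

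The other 5 patterns searched are linked with regulators of the core or are common in promoters. TGACNNNGC, the antioxidant response element read by NFE2L1 and NFE2L2, was in 5 of 49 promoters (10.2%, against 12.3% of all), the related TGAGNNNGC in 6 of 49 (12.2%, against 3709 of all 19548), and TTCNNNGAA, part of the heat shock element, in 6 of 49 (12.2% against 7.11%). CCAAT was in 18 of 49 (36.7% against 35.4%) and GGGCGG, the GC box, in 30 of 49 (61.2% against 50.6%). Of the 5 genes with the antioxidant pattern PSMD14 and PSMC5 held it before the start.
PSMD14, chr15:68107275-68107303, plus strand (match on the opposite strand): cgggcggcagGCGTTGTCAgtccgggcag
PSMC5, chr12:15106335-15106363, minus strand: ccaaagctccTGACCTCGCgtggccccgc

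No activator or chaperone passed the test between groups. PSME1 had 6.92, 10.4, 19.7, 13.5 and 7.97 FPKM in H1, H2, H4, H5 and H6 and 16.1, 7.21, 14.2, 7.12, 13.6 and 15.4 FPKM in L1 to L6. Its log2 fold change was -0.84 (SE 0.73, limma adjusted p = 0.80) with the 0 of H3 and -0.09 without H3. PSME1 and PSME2, whose products form a mixed ring, lie 3.96 kb apart on chromosome 7 with facing ends. PSME2 was 12.4 ± 3.15 FPKM in H and 9.95 ± 2.74 FPKM in L (SD, n = 6 each). PSME3, the nuclear activator, was 10.6 ± 2.58 and 9.34 ± 1.90 FPKM, and PSME4 22.03 to 64.4 FPKM in H and 29.3 to 51.5 FPKM in L, highest in H5. Each of these differences was within the spread between pigs (limma adjusted p from 0.77 to 0.96). The log2 fold changes of PSME2, PSME3 and PSME4 were 0.31, 0.17 and -0.07 by FPKM and 0.08, -0.08 and -0.33 by coverage, so that PSME3 changed sign, and by coverage PSME4 was highest in L1. PSME3 was lowest in L3 by FPKM, with a transcript of 6006 bases, and highest there by coverage.

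Among the chaperones of the α ring PSMG3 had the smallest adjusted p, with 6.56 ± 1.31 FPKM in H and 5.00 ± 1.43 FPKM in L (SD, n = 6 each; limma adjusted p = 0.69), a log2 fold change of 0.38 by FPKM and 0.15 by coverage. PSMG4 had 27.5, 31.6, 27.7, 28.7, 19.1 and 28.5 FPKM in H1 to H6 and 21.2, 30.3, 25.3, 25.8 and 29.2 FPKM in L1, L2, L4, L5 and L6. Its log2 fold change of 0.99 (SE 0.87, limma adjusted p = 0.81) came from the 0 of L3 and was 0.04 without that pig. PSMG1 was 17.6 ± 1.40 and 17.2 ± 3.33 FPKM and PSMG2 10.1 ± 1.88 and 10.8 ± 1.48 FPKM in H and L, and the log2 fold change of PSMG1 was 0.05 by FPKM and -0.02 by coverage.

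Genes that work with the proteasome were compared in lists drawn up with earlier results of these data known. None of their members passed the adjusted threshold, and SEM1 and B2M were listed at 0 in all libraries. Genes with an unadjusted p under 0.05 are named. Of the 11 proteasome partners tested, such as ADRM1 and USP14, 8 had a log2 fold change below 0 (median -0.21) and 0 an unadjusted p under 0.05. Of the 11 genes for delivery of substrates 10 were below 0 (median -0.15), and NPLOC4, a cofactor of the unfoldase VCP, had 33.8 ± 9.71 FPKM in H and 51.5 ± 12.3 FPKM in L. Of the 8 regulators 6 were below 0 (median -0.25), and 2 had an unadjusted p under 0.05. KEAP1, which holds NFE2L2 back, had 39.9 ± 7.71 and 50.6 ± 4.92 FPKM, HSF1, the heat shock factor, 20.3 ± 4.20 and 26.7 ± 3.76 FPKM, and NFE2L1 (unadjusted p in limma 0.062) 94.8 ± 26.6 and 145 ± 59.5 FPKM in H and L (SD, n = 6 each; limma adjusted p of 0.61 to 0.69 for these 4 genes).

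Of the 5 ubiquitin genes tested 2 were below 0 (median 0.04), and UBA1, the enzyme that activates ubiquitin, had 27.8 ± 2.88 FPKM in H and 34.4 ± 5.08 FPKM in L. Of the 10 muscle ubiquitin ligases 6 were below 0 (median -0.09), and 3 had an unadjusted p under 0.05. FBXO32 (atrogin-1), which marks proteins for breakdown in muscle wasting, had 62.1 ± 16.8 and 96.3 ± 33.4 FPKM, FBXO30 3.00 ± 0.769 and 5.62 ± 2.71 FPKM, and TRIM55 6.35 ± 0.714 and 15.3 ± 14.7 FPKM, the last with 45.0 FPKM in L3 (SD, n = 6 each; limma adjusted p of 0.63 to 0.68 for the ligases and UBA1). Of the 7 antigen presentation partners tested 2 were below 0 (median 0.04) and 0 had an unadjusted p under 0.05.

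Markers of other cell types were uneven in sign as well, with none past the adjusted threshold. All 7 adipocyte markers had a log2 fold change above 0 (median 0.72), and they summed to 127 to 226 FPKM in H and 73.6 to 138 FPKM in L. Above 0 were also 4 of 4 erythroid markers (85.4 to 301 FPKM in H and 73.9 to 162 FPKM in L), 5 of 5 endothelial markers (48.6 to 116 and 34.4 to 94.4 FPKM), 6 of 7 macrophage markers (27.7 to 45.6 and 19.5 to 50.9 FPKM) and 4 of 5 lymphocyte markers (3.80 to 7.83 and 3.38 to 8.50 FPKM). CD68, MS4A1, CLDN5 and SLC4A1 were listed at 0 in all libraries. Of the 8 muscle markers 5 were below 0 (median -0.22). The 5 included CKM, listed at 0 in H4 and L2 (SE 2.77), and CASQ1, listed at 0 in 5 libraries (SE 3.03). With an unadjusted p under 0.05 stood CIDEC and LPL (adipocyte), HBB and AHSP (erythroid) and TEK and KDR (endothelial), all with the higher mean in H, and DES (muscle) with the lower. The part of these cells in the proteasome values was not tested.

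The proteasome genes were listed with 120 distinct intron chains, 50 of them annotated by RefSeq, and for 30 genes an annotated chain was present in all 12 libraries. Of the 70 chains without annotation 50 occurred in 1 library and 7 in 6 or more. The recurring ones were the PSMD11 chain and a PSMB10 chain of 3 introns in all 12 libraries, a PSMF1 chain of 7 introns and a PSMG3 chain of 1 intron in 10, a PSME1 chain of 11 introns in 7, and chains of PSMC6 (14 introns) and PSMD13 (13 introns) in 6. The PSMC6 chain without annotation and the annotated one were each found in 6 pigs, 4 H and 2 L pigs for the first and 2 H and 4 L for the second.

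Some values share sequence with other loci. PSMD8 has a copy on chromosome 1 (90.5% identity over 62.2% of its mRNA), where 0.216 to 0.740 FPKM were listed in 9 libraries, and PSMD4, PSME2 and PSMG2 have copies of 81.7%, 90.1% and 91.0% identity at which nothing was listed. Exons of 10 proteasome genes overlap those of a neighbour, among them PSMD6 with ATXN7 (289 bases) and PSMC5 with FTSJ3 (461 bases), both on opposite strands. For these genes a part of the level may belong to the partner.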

How the data were processed

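RNA-seq libraries (76-bp paired-end reads) of 12 pigs were used. Per the labels and methods, the authors trimmed reads with Trim Galore, aligned them with TopHat2 2.1.0 to Sscrofa11.1 guided by the Ensembl annotation, and assembled transcripts in each library with Cufflinks 2.2.1. The deposited attribute field of each transcript holds its FPKM and its coverage, other values per assembled transcript and not read counts.

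Each transcript was assigned to the RefSeq gene (Sscrofa11.1) on its strand with which it shared most exonic bases (unstranded transcripts if the share reached 50%). FPKM were summed per gene and scaled by median ratios (factors 0.892 to 1.13), because transcripts under 200 bases took 98.6 to 99.5% of all FPKM. The measure called coverage was coverage times the whole assembled length, summed and divided by the annotated exonic length of the gene. Assembled bases beyond the gene are thus included. The 12398 genes whose mean reached 0.5 FPKM in H or in L were tested with limma 3.58.1 (R 4.3.3), variance trend, on log2(FPKM + 0.5), so that fold changes of low genes are understated. The test is two-sided, with Benjamini-Hochberg adjustment over all genes and a threshold of 0.1. The study's own test needs alignments, which were not used here. On simulated data for this comparison (12398 genes) 72 of 100 changes of 1.2 and 90 of 100 changes of 2.0 on the log2 scale were recovered, with 12 false calls. Ratios were tested by exact permutation, 10 correlations by permutation with 100000 resamples (Python 3.11.15, numpy 2.4.6, scipy 1.17.1). Copies of mRNAs were searched with minimap2 2.31-r1302 (at least 80% identity over 50% of the mRNA).

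The proteasome genes, gene lists and marker lists were chosen with earlier results of these data known. Values per group are given for the catalytic subunits, activators, chaperones and PSMF1, for genes with an unadjusted p under 0.05, for the highest and lowest gene of each subcomplex by mean level, and for genes listed at 0. Of other lists, genes with an unadjusted p under 0.05 are named, at most 4 per list; HSPA8, UBB, NFE2L1, the genes the leading pigs share and the immunoproteasome partners in H3 were named after their values were seen. Some list members are not reported here by name. The alternatives were other pseudocounts, filters, scalings, transcript sets, variance models, a replicate block, pigs left out, coverage in place of FPKM and a covariate for the number of transcripts.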

Additional observations from a re-analysis of the deposited data

Results flagged for a closer look

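Within the 6 pigs of a group, 16 of 98 sets of values had a highest or lowest pig whose gap to its nearest neighbour exceeded Dixon's critical share of the range for 6 samples, where chance gives about 1 in 20. The 98 sets are not separate observations, since core genes move together within a pig and the ratios repeat single genes. The count is therefore a description. H5 held 5 of the 16: it was far above the other H pigs for PSMA1 (71.5 FPKM, others 40.0 to 46.7), PSMB1 (91.8 FPKM, others 69.1 to 75.9), PSMC4 (54.1 FPKM, others 35.3 to 42.3) and PSMD4 (92.5 FPKM, others 63.9 to 74.0), and far below for PSMG4 (19.1 FPKM, others 27.5 to 31.6).

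H3 held 4: PSMB8 (7.57 FPKM, others 3.03 to 4.66), PSMB9 (5.00 FPKM, others 0.84 to 2.20), PSMB8 over PSMB5 (14.9%, others 3.97 to 7.07%) and PSMB9 over PSMB6 (7.43%, others 1.11 to 3.05%). L3 was apart for PSMB9 (3.01 FPKM, others 0.98 to 1.64) and PSMG4 (0, others 21.2 to 30.3 FPKM). The PSMB9 transcripts of H3 and L3 were among the shorter ones, with 748 and 854 bases against 703 to 1836 bases in the other pigs. The CV of PSMB9 was 63.6% by FPKM and 37.2% by coverage, where H3 (4.61) and L3 (3.37) were still above the other pigs.

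The other values that went with a changed transcript length were PSMA3 in L1 (14.9 FPKM, others 59.6 to 82.6), PSMD9 in H6 (8.04 FPKM, others 4.63 to 5.89), PSMD9 in L2 (11.5 FPKM, others 4.87 to 6.06), PSME3 in L3 (5.55 FPKM, others 9.64 to 10.6; highest of the 12 pigs by coverage) and PSMB8 over PSMB5 in L2 (17.5%, others 3.79 to 7.09%).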

How the results depend on the processing

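No proteasome gene was called in limma under any of 26 alternatives, and the lowest adjusted p of any was 0.34, by coverage. The number of all genes called, 1, became 0 when genes needed a mean of 1 FPKM, 5 by coverage, 2 without a variance trend, 2 with array weights, 0 with the number of transcripts as a covariate, and 1 to 3 when pigs were left out in turn. The median log2 fold change of the proteasome genes, -0.18, was -0.23 to -0.11 without single pigs. Of 779 values of 30 named genes under alternatives 45 had the other sign. The ratios stayed on their side of the threshold in every alternative run, and for PSMB8/PSMB5 and PSMB10/PSMB7 whole annotated intron chains gave no value, since a library had none.

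H and L pigs share individual numbers, but these do not pair them: the correlation of same-numbered deviations was -0.07 to 0.06, and 1 of 6 H pigs correlated best with its own number. With the number as a replicate block 0 genes passed, 888 had an unadjusted p under 0.05 (906 without the block), 0 proteasome genes passed and the median was -0.18. The 3 ratios differed by 0.03, 0.50 and 0.28 on the log2 scale, as without the pairing. Without single pigs PSMB8/PSMB5 went from 0.03 to -0.21 (without H3) and 0.32 (without L2), and PSMB9/PSMB6 from 0.50 to 0.17 (without H3) and 0.76 (without L3), with PSMB10/PSMB7 between 0.18 and 0.37.

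FPKM without counts leave depth unknown, and FPKM of genes with extended or fragmented transcripts move with assembled length. The standard error of a log2 fold change had a median of 0.17.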
